A study of Mus musculus with 12 samples.

Results

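The 44 genes described here encode the NF-kB transcription factor subunits, the IkB inhibitors, the kinases and ubiquitin-editing proteins that control them, and the adaptors and IRAK kinases that link Toll-like receptors to this machinery. They were taken from a list of symbols and found by Ensembl identifier among the 52636 genes of the count table, where each symbol matched 1 identifier. All 44 were abundant enough to be tested, with 32 to 9257 reads per library. Primary microglia of wild-type (WT) C57BL/6 mice were exposed for 24 h to 5 µg of full-length NfL (neurofilament light chain, a neuronal cytoskeletal protein), to 5 µg of coiled-coil NfL, or to vehicle. Each of the 3 groups had 4 libraries, 1 in each of 4 labelled batches. All groups shared the same culture: microglia from brains of newborn pups, harvested from glial flasks by shaking, seeded at a density of 50000 per well and kept in medium containing the growth factor CSF1 (2.5 ng per well). The labels do not say how the NfL proteins were made, nor whether the batches were separate cultures or litters, so p-values measure the spread between these libraries.

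NF-kB is a family of dimeric transcription factors that resting cells keep in the cytoplasm, bound to IkB proteins. When a Toll-like receptor binds its ligand, the adaptor MyD88 recruits IRAK kinases, and both MyD88 and the adaptor TRIF (Ticam1) engage TRAF ubiquitin ligases. These activate the kinase Map3k7 and then the IKK complex, which marks IkB for destruction and frees NF-kB. Several inhibitors of the pathway are themselves transcribed by NF-kB, and in microglia the pathway drives the cytokine response to microbial products and to tissue damage.

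The libraries held 20162427 to 31048044 counted reads. Microglia markers were present in all of them, and 12 of 12 passed the filter. Their summed level was 13213 to 14920.1 CPM (read counts scaled to library size with TMM factors) with full-length NfL. It was 13932 to 16215 with coiled-coil NfL and 13757 to 17715 with vehicle. Single markers went both ways with full-length NfL against vehicle, with log2 fold changes from −1.62 to 1.83. Of the 12, 1 was higher and 4 lower (edgeR, adjusted p below 0.05), beside 14% and 10.9% of all tested genes. Markers of other cells were low, except that Mbp and Cnp, listed here as oligodendrocyte genes, averaged 92.2 and 127 CPM over all libraries, and the endothelial gene Flt1 43.1 CPM. The 6 endothelial markers, with Cldn5 at 0, summed to 37.6 to 49.5 CPM with full-length NfL, 51 to 73 with coiled-coil NfL and 46.1 to 101 with vehicle. The summed level of 10 neuron markers was 15.7 to 46.9 CPM with full-length NfL, 25.5 to 74.4 with coiled-coil NfL and 30.5 to 99.0 with vehicle. Together 10 astrocyte markers, with Gjb6 at 0, gave 23.8 to 37.5 CPM with full-length NfL, 24.1 to 52.3 with coiled-coil NfL and 26.0 to 57.8 with vehicle. Of 6 neutrophil markers 1 passed the filter, with S100a9 and Mpo at 0 throughout. In bulk RNA, fewer cells of a type and less RNA per cell cannot be told apart.

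In vehicle-treated microglia the order of the members was set by level per length of exon. Nfkbia, which encodes the IkB protein that is resynthesised after each round of NF-kB activation, stood first at 76.8 ± 17.3 CPM per kb (SD, n = 4). Myd88 at 44.4 ± 8.8, the adaptor subunit Tab2 at 43.5 ± 3.97 and the transactivating subunit Rela at 40.8 ± 1.76 CPM per kb came next, and these 3 did not differ beyond their spread. Nfkb2 at 24.7 and Irak1 at 23.4 CPM per kb followed. At the low end stood Tab3 at 3.53, Traf5 and Malt1 at 1.74 each, and Traf1 at 0.283 ± 0.133 CPM per kb. Traf1, the least abundant member with vehicle, also had the largest log2 fold change of the members between full-length NfL and vehicle.

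**Figure D1:**
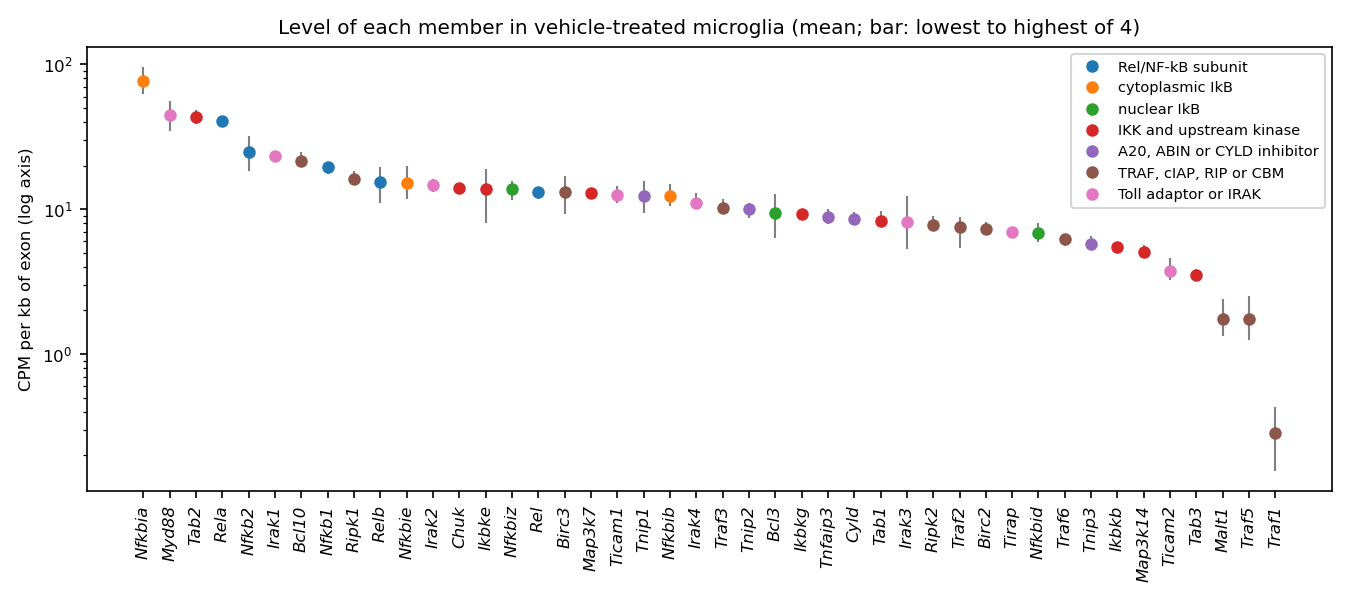
Level of each of the 44 members in vehicle-treated microglia, in CPM per kb of exon on a log axis; points are means of 4 libraries, bars run from the lowest to the highest library, and colours give the role. Nfkbia is highest at 76.8 CPM per kb and Traf1 lowest at 0.283 CPM per kb.

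The first comparison asked which members differed between microglia given full-length NfL and those given vehicle. Of the 44 members, 14 were higher and 1 was lower at an adjusted p below 0.05 (edgeR quasi-likelihood test, Benjamini-Hochberg adjustment over 14687 genes), and 29 were not called. Among all tested genes 14% were called higher and 10.9% lower. The members' log2 fold changes ran from −0.50 to 2.19 with a median of 0.12, beside a median of −0.02 over all tested genes. Higher were Traf1, Irak3, Nfkbiz, Ikbke, Bcl3, Ticam2, Tnip1, Myd88, Ticam1, Birc3, Traf2, Tnip3, Nfkbib and Ripk2, and lower was Traf6. The 4 full-length libraries lay above all 4 vehicle libraries for 11 members and below them for 5, against 14.5% and 11.4% of all tested genes.

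By role, none of the 5 NF-kB subunits was called, and of 9 IKK and upstream kinase genes only Ikbke was. Toll adaptors and IRAKs had 4 of 8 called higher, and the nuclear IkB proteins 2 of 3. These counts were not tested against each other, and over all tested genes 14% were called higher. With the replicate number as a block, 15 members were higher and 7 lower, beside 21.4% and 22.4% of all tested genes, and with upper-quartile scaling 14 were higher and 5 lower, beside 11.5% and 13.6%. With GC and length trends removed 18 were higher and 0 lower, beside 16.4% and 7.52% of all tested genes, and with the block as well 24 and 2, beside 28.5% and 18%.

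**Figure D2:**
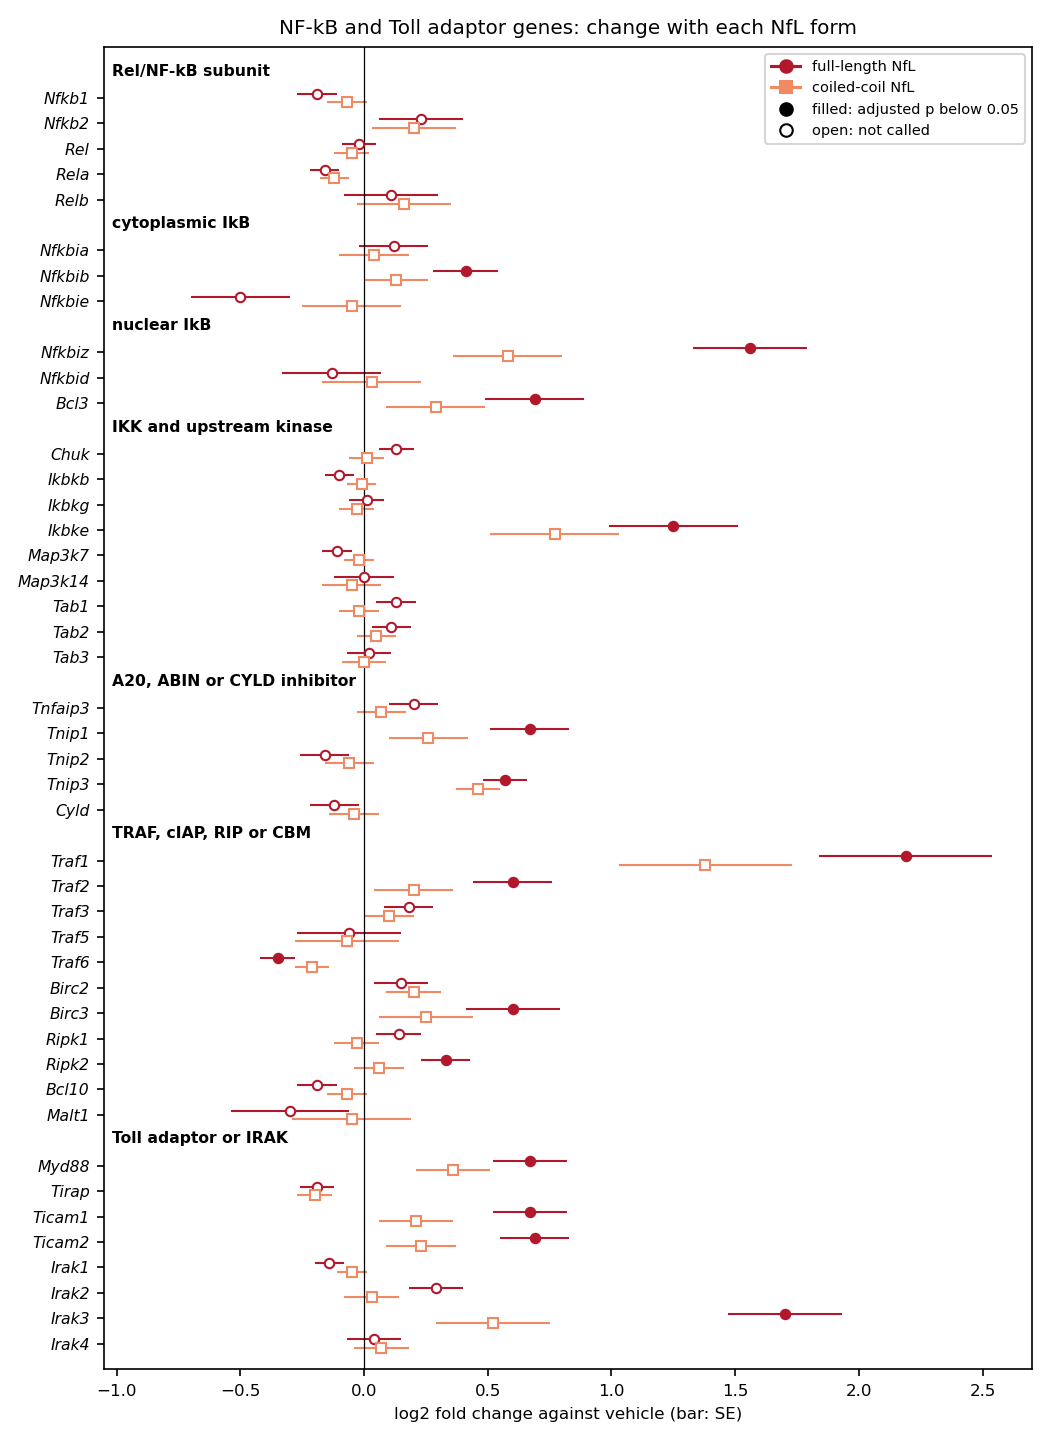
Log2 fold change of each member with full-length NfL (circles) and coiled-coil NfL (squares) against the same 4 vehicle libraries, grouped by role; bars are standard errors and filled symbols have an adjusted p below 0.05. Filled symbols occur for full-length NfL alone, 14 to the right of 0 and Traf6 to the left.

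None of the NF-kB subunits was called with full-length NfL. Rela, the main transactivating subunit, had 111, 119, 112 and 108 CPM with full-length NfL, against 129, 121, 131 and 121 CPM with vehicle. All 4 full-length values lay below all vehicle values, but the difference was small, at a log2 fold change of −0.16 ± 0.06 (SE), with an adjusted p of 0.0712 (0.0384 with DESeq2). Nfkb1, precursor of the DNA-binding partner of RelA, had 227, 195, 215 and 186 CPM with full-length NfL and 239.8, 229, 257 and 213 CPM with vehicle. These ranges overlapped, and its log2 fold change was −0.19 ± 0.08 with an adjusted p of 0.118. With the replicate block both passed as lower, Rela at an adjusted p of 0.0415 and Nfkb1 at 0.034. After removal of GC and length trends neither was called, with estimates of −0.02 for Rela (adjusted p of 0.876) and 0.02 for Nfkb1 (0.93), and adding the block gave −0.03 (0.729) and 0.03 (0.79). Rel, the subunit prominent in lymphoid and myeloid cells, had a log2 fold change of −0.02 ± 0.07. The subunits of the non-canonical arm, Nfkb2 and Relb, had 0.23 ± 0.17 and 0.11 ± 0.19, with adjusted p of 0.324 and 0.701. Nfkb2 passed as higher with the replicate block and those trends removed, at 0.44 with an adjusted p of 0.0206.

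The cytoplasmic IkB proteins differed from each other. Nfkbia had 161, 130.3, 129 and 116 CPM with full-length NfL, against 154, 100.1, 140.3 and 99.8 CPM with vehicle. The groups overlapped, with a log2 fold change of 0.12 ± 0.14 (95% interval −0.20 to 0.44) and an adjusted p of 0.554. Nfkbib, the second IkB of the resting cell, had 32.9, 42.8, 31.9 and 33.3 CPM with full-length NfL, against 26.8, 24.3, 32.2 and 23 CPM with vehicle. It rose 1.33-fold, log2 fold change 0.41 ± 0.13 with an adjusted p of 0.0396, although vehicle replicate 3 lay inside the full-length range. That call was lost without any 1 of 6 libraries, at log2 fold changes and adjusted p of 0.30 and 0.111 without full-length replicate 2, 0.44 and 0.0581 without full-length replicate 4, 0.41 and 0.075 without vehicle replicate 1, 0.38 and 0.0936 without vehicle replicate 2, 0.35 and 0.105 without vehicle replicate 4, and 0.41 and 0.0501 without coiled-coil replicate 4. Nfkbie, which binds RelA and c-Rel dimers, had 42.5, 26.7, 36.3 and 24.4 CPM with full-length NfL, against 60.9, 35.7, 51.2 and 36.4 CPM with vehicle. The full-length library was the lower of the pair in each of the 4 batches. Its log2 fold change was −0.50 ± 0.20 with an adjusted p of 0.0831, and it passed as lower with the replicate block (adjusted p of 0.00459), with DESeq2 (0.0485) and without full-length replicate 1 (0.0289).

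Nuclear IkB proteins act on promoters rather than holding NF-kB in the cytoplasm, and here lay the third largest rise. Nfkbiz (chr16:55811375-55838899, GRCm38), a coactivator needed for secondary response genes such as Il6, had 199, 255, 119 and 236 CPM with full-length NfL, against 78.2, 74.1, 63.8 and 58.4 CPM with vehicle. Every full-length library exceeded every vehicle library, with replicate 3 the lowest of the treated ones. Nfkbiz rose 2.95-fold, log2 fold change 1.56 ± 0.23 with an adjusted p of 0.0011. Il6 itself averaged 0.45 CPM with full-length NfL and 0.15 CPM with vehicle and was not tested. Bcl3, which partners homodimers of the smaller NF-kB proteins, had 39.4, 40.6, 40.6 and 29.2 CPM with full-length NfL, against 26.3, 19.6, 31.6 and 15.6 CPM with vehicle. Full-length replicate 4 fell below the highest vehicle library, and the rise was 1.61-fold, log2 fold change 0.69 ± 0.20 with an adjusted p of 0.0254. It missed the threshold without full-length replicate 2 (log2 fold change 0.65, adjusted p of 0.0607), full-length replicate 3 (0.65, 0.0552), vehicle replicate 2 (0.62, 0.0636) or vehicle replicate 4 (0.55, 0.0531). Nfkbid, required for B-cell and regulatory T-cell responses, averaged 14.7 ± 4.49 CPM with full-length NfL and 16.2 ± 2.16 CPM with vehicle (SD, n = 4 each) and was not called.

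In the group of kinases, the classical IKK complex and the kinase above it were not called in the fit by group. Ikbkb, the catalytic subunit that phosphorylates IkB, had 98, 95.5, 98.5 and 95.2 CPM with full-length NfL, against 111, 102, 101 and 101 CPM with vehicle. The groups did not overlap, yet the difference was small, at a log2 fold change of −0.10 ± 0.06 with an adjusted p of 0.212, and 0.15 after removal of GC and length trends. Chuk, Ikbkg, Map3k7, Map3k14, Tab1, Tab2 and Tab3 had log2 fold changes between −0.11 (Map3k7) and 0.13 (Chuk and Tab1), with standard errors up to 0.12. With GC and length trends removed and the replicate block, Chuk (0.20, adjusted p of 0.0369), Ikbkg (0.17, 0.0194), Map3k14 (0.24, 0.0224), Tab1 (0.23, 0.0159) and Tab2 (0.24, 0.0108) passed as higher, and Tab1 also without the block (0.0325). The exception was Ikbke (chr1:131254343-131279606, GRCm38), an inducible IKK-related kinase that acts towards interferon regulatory factors. Its values were 314, 272, 331 and 278 CPM with full-length NfL, against 166, 90.5, 172 and 72.7 CPM with vehicle. The groups were well apart, although the vehicle libraries differed among themselves by more than the treated ones. Ikbke rose 2.38-fold, log2 fold change 1.25 ± 0.26 with an adjusted p of 0.00613.

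Of the 5 inhibitor genes of the A20, ABIN and CYLD group, 2 rose. Tnip1 and Tnip3 encode ABIN proteins, which bind the ubiquitin-editing enzyme A20, the product of Tnfaip3 and a feedback inhibitor of NF-kB. Tnip1 had 70.5, 66.4, 79.9 and 63.6 CPM with full-length NfL, against 55.7, 33.2, 52.1 and 34.8 CPM with vehicle, a 1.59-fold rise with a log2 fold change of 0.67 ± 0.16 and an adjusted p of 0.0101. Tnip3 had 92.8, 97.7, 95.2 and 85.2 CPM with full-length NfL, against 71.4, 62.7, 57.3 and 59.4 CPM with vehicle, a 1.48-fold rise with a log2 fold change of 0.57 ± 0.09 and an adjusted p of 0.00157. For both, no full-length library overlapped with vehicle. Tnfaip3 itself had 72.1, 81.6, 62.6 and 76.6 CPM with full-length NfL, against 72.7, 57, 62.7 and 62.6 CPM with vehicle. Its groups overlapped and its log2 fold change of 0.20 ± 0.10 (95% interval −0.03 to 0.43) had an adjusted p of 0.168. It passed as higher once GC and length trends were removed, at 0.35 with an adjusted p of 0.0194. Tnip2 and the deubiquitinase gene Cyld were not called, at −0.16 ± 0.10 and −0.12 ± 0.10.

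Because inhibitors of the pathway include known NF-kB target genes, the windows from 250 bases before to 50 bases after the transcription start (RefSeq, GRCm38.p6) were searched on both strands for the NF-kB consensus motif of 10 bases. A window was found for 36 of the 44 members, and not for Ikbkb, Malt1, Nfkb1, Nfkbiz, Relb, Ripk2, Tab1 and Ticam2. The motif was in a window of 13 of these 36 genes (36.1%), against 1388 of 27025 genes with a window (5.14%). Among members with a window it was in 3 of the 11 called higher with full-length NfL (27.3%), in 10 of the 24 not called (41.7%) and not in that of Traf6. A match describes letters in a window and is no evidence of binding. The windows of the 3 risers with a match and of the best-known feedback inhibitors, Nfkbia and Tnfaip3, which were not called, are shown 5′ to 3′ on the strand of the gene, with the motif in capitals.
Tnip1, chr11:54962891-54963190, minus strand: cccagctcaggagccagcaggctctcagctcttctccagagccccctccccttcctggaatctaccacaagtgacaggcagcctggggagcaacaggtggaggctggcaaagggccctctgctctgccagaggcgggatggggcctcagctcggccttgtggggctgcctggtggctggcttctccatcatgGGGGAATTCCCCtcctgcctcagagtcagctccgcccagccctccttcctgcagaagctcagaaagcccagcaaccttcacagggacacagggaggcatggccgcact
Tnip3, chr6:65590148-65590447, plus strand: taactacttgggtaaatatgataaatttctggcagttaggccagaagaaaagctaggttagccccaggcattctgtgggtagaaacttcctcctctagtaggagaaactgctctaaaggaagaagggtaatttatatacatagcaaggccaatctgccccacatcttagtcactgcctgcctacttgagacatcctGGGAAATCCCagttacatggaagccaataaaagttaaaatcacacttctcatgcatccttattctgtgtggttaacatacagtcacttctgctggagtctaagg
Bcl3, chr7:19822706-19823005, minus strand: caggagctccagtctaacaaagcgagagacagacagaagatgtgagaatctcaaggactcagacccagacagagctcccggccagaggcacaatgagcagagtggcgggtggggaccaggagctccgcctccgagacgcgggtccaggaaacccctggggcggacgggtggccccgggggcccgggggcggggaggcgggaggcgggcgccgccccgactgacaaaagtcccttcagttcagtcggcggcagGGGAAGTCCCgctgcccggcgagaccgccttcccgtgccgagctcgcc
Nfkbia, chr12:55492598-55492897, minus strand: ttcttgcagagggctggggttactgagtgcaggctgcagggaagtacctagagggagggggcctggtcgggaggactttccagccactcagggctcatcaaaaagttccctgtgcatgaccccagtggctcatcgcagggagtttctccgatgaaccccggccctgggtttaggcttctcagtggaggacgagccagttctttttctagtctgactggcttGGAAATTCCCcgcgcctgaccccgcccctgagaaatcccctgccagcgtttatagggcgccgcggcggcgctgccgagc
Tnfaip3, chr10:19015361-19015660, minus strand: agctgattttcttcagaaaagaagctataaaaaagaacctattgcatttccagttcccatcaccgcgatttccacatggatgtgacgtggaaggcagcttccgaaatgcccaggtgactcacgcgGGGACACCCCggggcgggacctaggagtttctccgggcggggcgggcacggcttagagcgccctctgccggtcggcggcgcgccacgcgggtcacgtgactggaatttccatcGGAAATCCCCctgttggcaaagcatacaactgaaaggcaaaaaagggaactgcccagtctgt
With the first transcribed base counted as 0, the capitals begin at −58 in Tnip1, where 4 matches on both strands overlap in 1 stretch, at −54 in Tnip3 and at 2 in Bcl3. The Tnip3 window shown lies inside the gene as annotated (chr6:65525313-65634040), so its first transcribed base is an internal start. The capitals begin at −29 in Nfkbia and at −125 and −12 in Tnfaip3. These windows were chosen because they hold a match. The other called members with a window, among them the inhibitor genes Nfkbib and Irak3, had none.

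TRAF proteins, cIAP ubiquitin ligases, RIP kinases and the Bcl10-Malt1 pair carry the signal from receptors to the kinases. Of these 11 genes, 4 rose and 1 fell. Traf1 (chr2:34941750-34961772, GRCm38), an adaptor of tumour necrosis factor receptors without ligase activity of its own, had 7.67, 13.7, 15.9 and 8.25 CPM with full-length NfL, against 3.82, 1.63, 3.13 and 1.38 CPM with vehicle. It rose 4.56-fold, log2 fold change 2.19 ± 0.35 with an adjusted p of 0.00174, and its groups did not overlap. Traf2, its ligase partner, had 51.2, 70, 53.5 and 58.8 CPM with full-length NfL, against 43.2, 38.1, 44.9 and 27.7 CPM with vehicle. The groups did not overlap, and the rise was 1.52-fold, log2 fold change 0.60 ± 0.16 with an adjusted p of 0.0158. Birc3, the inducible cIAP gene, had 97.8, 108, 105 and 88 CPM with full-length NfL, against 84.5, 49.5, 82.6 and 46.3 CPM with vehicle, a log2 fold change of 0.60 ± 0.19 with an adjusted p of 0.035. Vehicle replicates 1 and 3 came close to the treated libraries, and the call was lost without full-length replicate 2 (log2 fold change 0.56, adjusted p of 0.0785), full-length replicate 3 (0.58, 0.0688), vehicle replicate 2 (0.50, 0.0803) or vehicle replicate 4 (0.48, 0.0764).

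Ripk2, the kinase of the NOD receptors, had 22.9, 30.2, 28 and 29.4 CPM with full-length NfL, against 21, 21.2, 25.4 and 19.9 CPM with vehicle. Full-length replicate 1 lay inside the vehicle range, and the rise was 1.26-fold, log2 fold change 0.33 ± 0.10 with an adjusted p of 0.0344. Leaving out full-length replicate 2, 3 or 4 or vehicle replicate 1, 2 or 4 gave log2 fold changes of 0.29, 0.33, 0.31, 0.32, 0.33 and 0.30 with adjusted p of 0.0856, 0.0653, 0.0784, 0.081, 0.0692 and 0.0842. Traf6, the ligase that MyD88 and the IRAKs act through, was the single member called lower. It had 35.7, 41.6, 39.5 and 37.2 CPM with full-length NfL, against 44.1, 53.3, 49.4 and 49.1 CPM with vehicle, with every treated library below every vehicle library. Traf6 fell by 0.35 on the log2 scale (SE 0.07, adjusted p of 0.00622). Its estimate was −0.18 with an adjusted p of 0.177 once GC and length trends were removed. With the replicate block added to that setting Traf6 was called lower, at −0.18 with an adjusted p of 0.03. Traf3, Traf5, Birc2, Ripk1, Bcl10 and Malt1 were not called, with log2 fold changes from −0.30 (Malt1) to 0.18 (Traf3). With the replicate block Bcl10 and Malt1 passed as lower, at adjusted p of 0.0395 and 0.0476, but not once GC and length trends were removed as well (0.133 and 0.845). Traf3 passed as higher with those trends removed, at 0.32 with an adjusted p of 0.0213, and Ripk1 when the block was added, at 0.31 with 0.00656.

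Of the 8 Toll adaptors and IRAKs, 4 were called higher. Irak3 (chr10:120141648-120202130, GRCm38) encodes IRAK-M, a member of the IRAK family that restrains Toll-like receptor signalling in macrophages. It had 123, 93.9, 95.6 and 78.1 CPM with full-length NfL, against 45.7, 19.4, 32.7 and 22.2 CPM with vehicle. The lowest treated library stood well above the highest vehicle library, and Irak3 rose 3.25-fold, log2 fold change 1.70 ± 0.23 with an adjusted p of 0.000856. Irak4, the first kinase recruited by MyD88, had 53.5, 52.2, 67.1 and 55.9 CPM with full-length NfL, against 51.5, 54, 65.2 and 51.1 CPM with vehicle. These values overlapped throughout, at a log2 fold change of 0.04 ± 0.11 and an adjusted p of 0.795. Irak1, the effector kinase, had −0.14 ± 0.06 with an adjusted p of 0.121. Irak2, which sustains late signalling, had 0.29 ± 0.11 with an adjusted p of 0.072, and passed as higher with the replicate block (0.0484), without full-length replicate 3 (0.0244) and with GC and length trends removed (0.0372).

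Of the 4 adaptors, 3 rose, with fold changes close to each other. Myd88, shared by almost all Toll-like receptors, had 161, 189, 190.2 and 189 CPM with full-length NfL, against 109, 116, 144 and 89 CPM with vehicle, log2 fold change 0.67 ± 0.15 with an adjusted p of 0.00823. Ticam1, the TRIF adaptor, had 49.9, 75.4, 53.7 and 60.7 CPM with full-length NfL, against 32.8, 38.6, 43.5 and 36 CPM with vehicle, log2 fold change 0.67 ± 0.15 with an adjusted p of 0.00782. Ticam2, the TRAM adaptor that brings TRIF to the receptor, had 29.4, 40.9, 36.3 and 34.2 CPM with full-length NfL, against 22.9, 18.8, 26.7 and 18.8 CPM with vehicle, log2 fold change 0.69 ± 0.14 with an adjusted p of 0.00447. None of the 3 overlapped with vehicle. Tirap, the bridging adaptor of MyD88, had 30.7, 30.1, 29 and 31.7 CPM with full-length NfL, against 35.9, 34.6, 33 and 34.8 CPM with vehicle. Its 4 treated libraries lay just below all vehicle libraries, at a log2 fold change of −0.19 ± 0.07 with an adjusted p of 0.0718. That p was 0.0461 with the replicate block and 0.246 with the block and GC and length trends removed.

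Some of these genes share exonic bases with a neighbour, and whether counting used the strand is not given in the sources used here. Myd88 overlaps Acaa1a on the opposite strand over 11.3% of its exon length, and Acaa1a was itself higher with full-length NfL, log2 fold change 0.62 with an adjusted p of 0.0259. Irak3 overlaps Tmbim4 over 5.2% of its exon length, and Tmbim4 had a log2 fold change of 0.31 with an adjusted p of 0.0135. Ticam2 shares 14.5% of its exon length with Tmed7 on the same strand, and Tmed7 had −0.02 with an adjusted p of 0.854. Ikbkg overlaps G6pdx on the opposite strand over 5.2% of its exon length, and G6pdx had 0.37 with an adjusted p of 0.00351. Unless strand was used, reads in the shared bases of Myd88, Irak3 and Ikbkg could come from either gene. For Ticam2 and Tmed7, which averaged 97.4 CPM over all libraries, strand cannot separate such reads. The part of shared bases in the results was not tested.

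**Figure D3:**
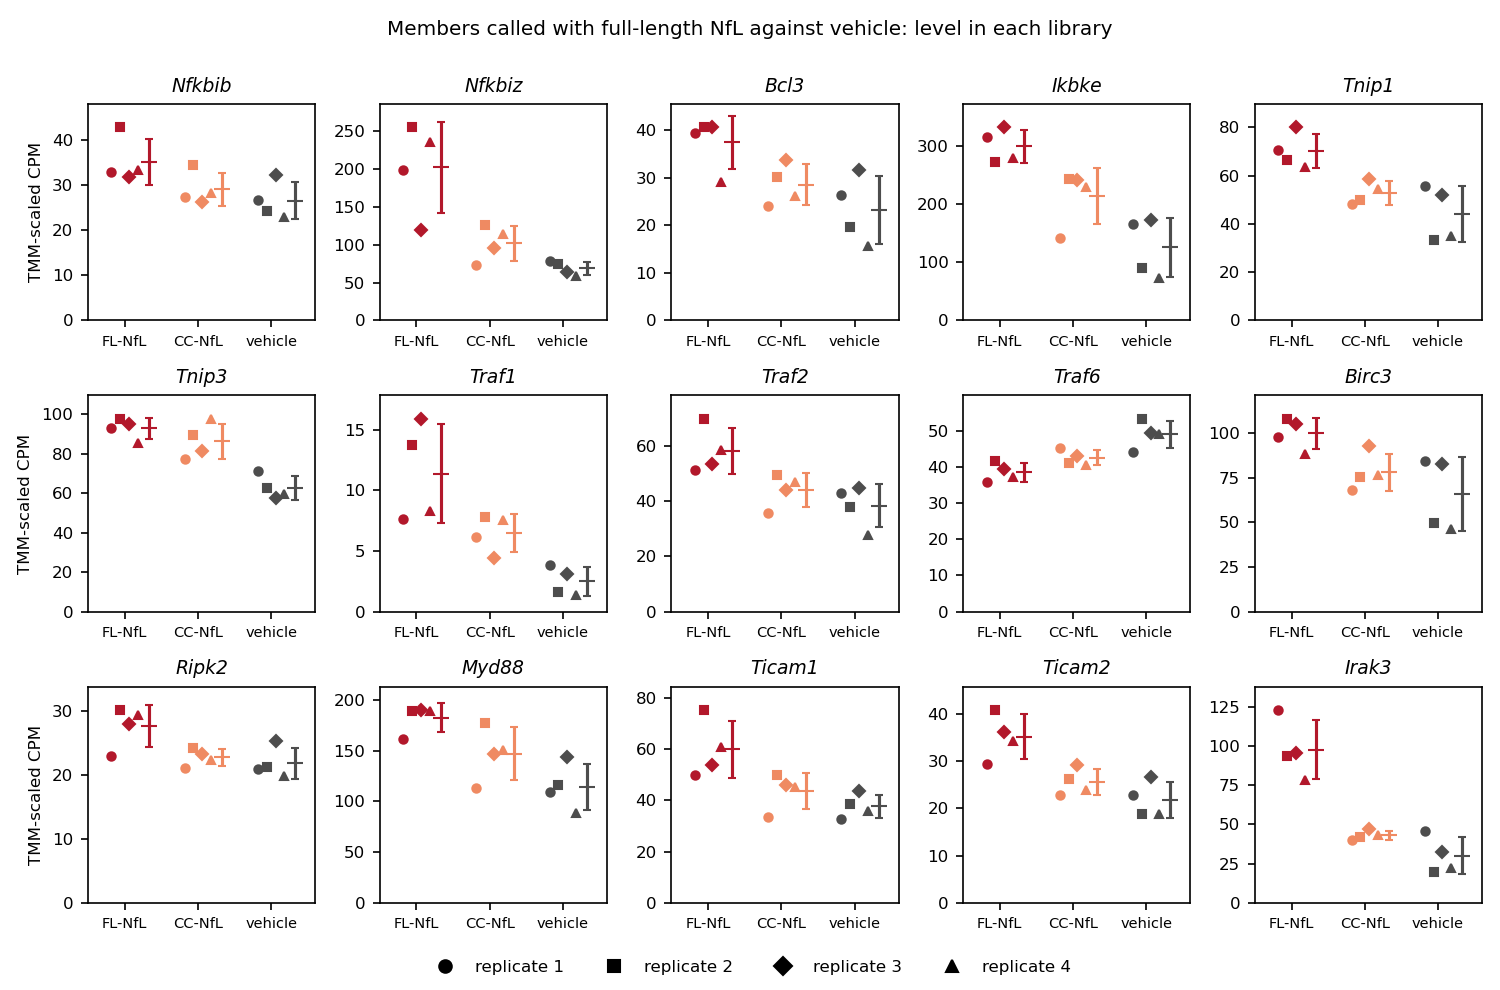
TMM-scaled CPM of the 15 members called with full-length NfL against vehicle, in each of the 12 libraries; symbols give the replicate number, and the bar beside each group is the mean ± SD (n = 4). Vehicle replicates 1 and 3 sit above vehicle replicates 2 and 4 in panels such as Ikbke (166 and 172 against 90.5 and 72.7 CPM) and Birc3 (84.5 and 82.6 against 49.5 and 46.3 CPM).

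Differences within batches describe the same libraries that gave the calls, so their sign is largely fixed by the choice of genes. Over all 44 members, the median log2 difference between the full-length and the vehicle library was 0.05 in batch 1, 0.24 in batch 2, −0.01 in batch 3 and 0.22 in batch 4. Over the 14 members called higher, the same median was 0.47 in batch 1, 1.02 in batch 2, 0.42 in batch 3 and 0.91 in batch 4. In batch 3 Nfkbib was at −0.01. Over all tested genes the medians were −0.01, −0.01, −0.02 and 0. Vehicle replicates 1 and 3 were the 2 highest vehicle libraries for 25 of the 44 members and for 9 of the 14 that rose, against 27.5% of all tested genes, a count made after the values were seen. The neuron markers' summed level was lower with full-length NfL in every batch, by log2 differences of −0.61, −1.40, −0.96 and −1.19, and that of the astrocyte markers by −0.34, −0.73, −0.13 and −0.67. Their part in the members' differences was not tested.

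**Figure D4:**
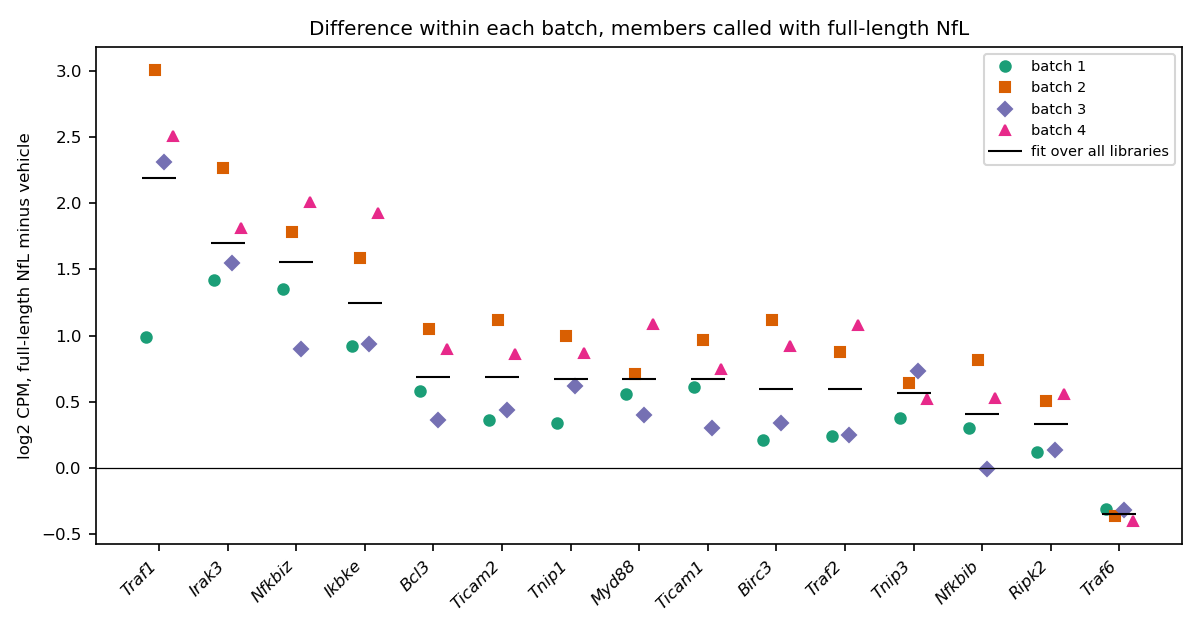
Log2 CPM of the full-length NfL library minus that of the vehicle library in each of the 4 batches, for the 15 members called; the black bar is the log2 fold change fitted over all libraries. Differences in batches 2 and 4 lie above those in batches 1 and 3 for each riser except Tnip3, and Traf6 is below 0 in all 4 batches.

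The second comparison asked whether coiled-coil NfL differed from vehicle for the same genes. No member was called in either direction (edgeR), and 0% of all tested genes were called higher and 0% lower. At an unadjusted p below 0.05 there were 8 members among 1082 genes, namely Tnip3, Traf1, Ikbke, Tirap, Traf6, Nfkbiz, Myd88 and Irak3. DESeq2 called 1 member, Tnip3, which was higher with an adjusted p of 0.00548, beside 21 genes higher and 6 lower among all genes. Tnip3 had 77.4, 89.3, 81.1 and 97.4 CPM with coiled-coil NfL, against 71.4, 62.7, 57.3 and 59.4 CPM with vehicle, log2 fold change 0.46 ± 0.09 with an edgeR adjusted p of 0.621. Traf1 had 6.15, 7.77, 4.41 and 7.56 CPM with coiled-coil NfL, against 3.82, 1.63, 3.13 and 1.38 CPM with vehicle, log2 fold change 1.38 ± 0.35 with the same adjusted p. For these 2 members the coiled-coil libraries lay above all vehicle libraries, which was so for 1.42% of all tested genes, and no member lay wholly below, against 1.31%. The other 42 overlapped. DESeq2 gave no adjusted p for Traf1, nor for Nfkbib, Nfkbid, Bcl3, Map3k14, Tab1, Tab3, Tnip2, Traf5, Ripk2, Malt1, Tirap and Ticam2. These members could therefore not be called by DESeq2 in this comparison. With the replicate block no member was called either, beside 0.00681% of all tested genes in each direction.

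The intervals given here for coiled-coil NfL come from the fit by group without the replicate block. Each is for 1 gene and is not adjusted for the number of genes tested. Ikbke had 142, 243, 240.1 and 229 CPM with coiled-coil NfL. Its log2 fold change against vehicle of 0.77 had a 95% interval from 0.18 to 1.36 and an edgeR adjusted p of 0.653. Coiled-coil replicate 1 lay below vehicle replicates 1 and 3. Nfkbiz had 73.1, 126, 95.8 and 114 CPM and a log2 fold change of 0.58 with an interval from 0.08 to 1.08 (adjusted p of 0.668). For Rela the interval was −0.26 to 0.01, for Nfkbia −0.28 to 0.37 and for Tnfaip3 −0.16 to 0.30. The NF-kB subunits had log2 fold changes from −0.12 to 0.20 with coiled-coil NfL, beside −0.19 to 0.23 with full-length NfL, and both sets were measured against the same 4 vehicle libraries.

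Other members that were called with full-length NfL had coiled-coil values between or among those of the remaining groups. Myd88 had 113, 177, 147 and 151 CPM with coiled-coil NfL and a log2 fold change against vehicle of 0.36 ± 0.15. Ticam1 had 33.6, 49.8, 46.2 and 45.1 CPM (0.21 ± 0.15), and Ticam2 22.9, 26.2, 29.2 and 23.9 CPM (0.23 ± 0.14). In each of Myd88, Ticam1 and Ticam2, replicate 1 was the lowest coiled-coil library and lay within the vehicle range. Tnip1 had 48.2, 49.7, 58.7 and 54.5 CPM with coiled-coil NfL (0.26 ± 0.16). Traf2 had 35.6, 49.6, 44 and 47.1 CPM (0.20 ± 0.16), and Birc3 67.9, 75.5, 92.5 and 76.2 CPM (0.25 ± 0.19). All 3 overlapped with vehicle. The IkB genes Nfkbib and Bcl3 had 27.3, 34.4, 26.3 and 28.2 CPM and 24.1, 30.1, 33.8 and 26.1 CPM, at 0.13 ± 0.13 and 0.29 ± 0.20. Ripk2 had 21.1, 24.2, 23.3 and 22.4 CPM, at 0.06 ± 0.10. Traf6 had 45.2, 41.1, 43 and 40.6 CPM, at −0.21 ± 0.07, with only its replicate 1 inside the vehicle range.

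Coiled-coil values of 6 members not called with full-length NfL follow. Rela had 115, 123, 112 and 111 CPM with coiled-coil NfL and Nfkb1 214, 213, 244 and 223 CPM. Nfkbia had 131, 126, 129 and 125 CPM, a narrower spread than in vehicle. Ikbkb had 107, 97.1, 110.3 and 99.2 CPM, Tnfaip3 76.4, 64.4, 60.3 and 66.9 CPM, and Irak4 50.7, 58.7, 68.1 and 56.1 CPM. Each of these 6 overlapped with vehicle.

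The third comparison set the NfL forms against each other, which share a dose of 5 µg and a time of 24 h. Irak3 and Nfkbiz were higher with full-length than with coiled-coil NfL and no member was lower, against 1.38% of all tested genes called higher and 1.34% lower. Irak3 had 123, 93.9, 95.6 and 78.1 CPM with full-length NfL, against 40.3, 41.7, 47 and 43 CPM with coiled-coil NfL. Its coiled-coil libraries lay within a narrow range below all full-length libraries, and the difference was 2.27-fold, log2 fold change 1.18 ± 0.23 with an adjusted p of 0.0244. Nfkbiz averaged 202 ± 60.1 CPM with full-length NfL and 102 ± 23.1 CPM with coiled-coil NfL (SD, n = 4 each), log2 fold change 0.98 ± 0.22 with an adjusted p of 0.0417. Full-length replicate 3, at 119 CPM, lay below coiled-coil replicate 2, at 126 CPM.

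Both calls between the NfL forms depended on which libraries entered the fit, as did the number of calls over all tested genes. Neither passed without coiled-coil replicate 1, 3 or 4 or full-length replicate 2 or 4, where Irak3 had log2 fold changes of 1.16, 1.23, 1.19, 1.21 and 1.29 with adjusted p of 0.0731, 0.0616, 0.0539, 0.0717 and 0.0605. Nfkbiz had 0.86, 0.96, 1.05, 0.86 and 0.91 with adjusted p of 0.12, 0.106, 0.0661, 0.133 and 0.125 in those fits. It also missed the threshold without vehicle replicate 2 (0.99, 0.0592) or vehicle replicate 4 (0.99, 0.0549). Across those fits the estimates stayed between 1.16 and 1.29 for Irak3 and between 0.86 and 1.05 for Nfkbiz. Over all tested genes, 202 were called higher and 197 lower with all libraries in the fit. Without coiled-coil replicate 1, 3 or 4 these counts were 35 and 55, 31 and 59, and 75 and 94. Without full-length replicate 2 or 4 they were 14 and 18, and 15 and 22. Without full-length replicate 1, Ticam2 (log2 fold change 0.55, adjusted p of 0.0442) and Ripk2 (0.36, 0.0474) passed as well. In that fit 324 of all tested genes were called higher and 277 lower.

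More members separated the NfL forms when the batch was taken into account, and so did more of all tested genes. Without the block 1.38% of all tested genes were called higher and 1.34% lower. With the replicate block 6 members were higher and 1 lower, beside 8.99% and 10.1% of all tested genes. The additional ones were Ticam1 (log2 fold change 0.46, adjusted p of 0.00748), Ticam2 (0.47, 0.0151), Tnip1 (0.40, 0.0356) and Ripk2 (0.27, 0.0475), and Nfkbie was lower (−0.49, 0.0145). The 4 full-length libraries lay above all coiled-coil libraries for 7 members, Ikbke, Tab1, Tnip1, Traf2, Ticam1, Ticam2 and Irak3, against 7.46% of all tested genes, and below them for none, against 5.02%. For the subunits no difference was called, with a 95% interval of −0.17 to 0.10 for Rela and −0.31 to 0.07 for Nfkb1. Tnip3 and Tirap, with log2 fold changes between the forms of 0.10 (interval −0.10 to 0.30) and 0.02 (−0.14 to 0.17), were not called either.

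Other genes of the pathway were read from the same fit. Of 81 listed receptors, co-receptors, ubiquitin enzymes and related kinases 79 were tested, and with full-length NfL 13 were higher (16.5%) and 5 lower (6.33%) than with vehicle, with a median log2 fold change of 0.12. Among all tested genes 14% were higher and 10.9% lower. Tlr1, a partner of the lipopeptide receptor, averaged 196 ± 19.2 CPM with full-length NfL and 71.5 ± 13.2 CPM with vehicle (SD, n = 4 each), log2 fold change 1.46 ± 0.19 with an adjusted p of 0.000735. Its relative Tlr6 had a log2 fold change of 0.35 ± 0.07 and Tank, which binds TRAF proteins and IKK-related kinases, 0.68 ± 0.16, with adjusted p of 0.00618 and 0.00913. On the lower side Peli2, a ubiquitin ligase that binds IRAKs, averaged 18.1 ± 7.73 CPM with full-length NfL and 49.2 ± 9.39 CPM with vehicle, log2 fold change −1.44 ± 0.32 with an adjusted p of 0.00836. Tlr13, the receptor for bacterial ribosomal RNA, fell by 0.66 and the kinase gene Map3k1 by 0.33 on the log2 scale, with adjusted p of 0.0102 and 0.0156. The other 2 lower genes, named after their values were seen, were Nkap at −0.31 and Erc1 at −0.36. With the replicate block the counts were 28 higher and 15 lower, beside 21.4% and 22.4% of all tested genes.

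Among 52 listed NF-kB target genes that are not members, 46 were tested. With full-length NfL 20 were higher (43.5%) and 2 lower (4.35%) than with vehicle, with a median log2 fold change of 0.88. Among all tested genes 14% were higher and 10.9% lower, with a median of −0.02. With the replicate block 28 targets were higher and 5 lower, beside 21.4% and 22.4% of all tested genes. The list was chosen with earlier results of these data known, so its counts are a description only. Ccl5, a chemokine, averaged 745 ± 344 CPM with full-length NfL and 26.6 ± 16.3 CPM with vehicle (SD, n = 4 each), a 28-fold rise with an adjusted p of 0.00102. Nos2, the inducible nitric oxide synthase, averaged 10.4 ± 4.5 CPM with full-length NfL and 1.27 ± 0.597 CPM with vehicle, log2 fold change 3.02 ± 0.43 with an adjusted p of 0.00101. Ehd1, an endocytic recycling protein, had a log2 fold change of 1.34 ± 0.19. The 2 lower ones were Plau, the urokinase gene, at −1.22 ± 0.13 and Cd83, a surface marker of activated cells, at −1.23 ± 0.20, with adjusted p of 0.000386 and 0.00165. With coiled-coil NfL no gene of either list was called against vehicle by edgeR, 4 and 12 had an unadjusted p below 0.05, and DESeq2 called 0 and 2. Between the NfL forms, Tlr1 was the 1 other pathway gene called, with 196 CPM with full-length NfL and 109 CPM with coiled-coil NfL (log2 fold change 0.84, adjusted p of 0.0405). Of the targets, Nos2 was higher (2.12, 0.024) and Plau lower (−0.91, 0.00962) with full-length than with coiled-coil NfL. With the replicate block, the other pathway genes had 11 higher and 7 lower and the targets 16 higher and 4 lower, beside 8.99% and 10.1% of all tested genes.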

How the data were processed

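Per the labels' protocols, polyadenylated RNA of 12 libraries was sequenced from a stranded kit as single reads of 50 bases, and per the submitters' processing notes GSNAP and GRCm38 were used. Not given in the sources used here are the aligner's version, the counting tool, the annotation and the use of strand. The authors deposited raw counts per Ensembl gene, whole numbers with no normalization; symbols were matched through GENCODE M21 (99.7% of identifiers). The members and gene lists were chosen with earlier results of these data known. Every member called in any comparison is given in each library, as are Rela, Nfkb1, Nfkbia, Ikbkb, Tnfaip3, Myd88, Irak4 and Traf6; from the other lists, the 3 called genes with the smallest p in each direction are named.

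Counts were analysed with edgeR 4.0.16 in R 4.3.3: filterByExpr kept 14687 genes, libraries were scaled by TMM, and all 12 libraries were fitted together by group (9 residual degrees of freedom). Two-sided quasi-likelihood F tests were adjusted by Benjamini-Hochberg across these 14687 genes and called below 0.05. SEs were taken from the F statistic and 95% intervals from the t distribution. Total counts of 20162427 to 31048044 per library limit the precision for the rarest members. Within-batch differences are of log2 CPM with a prior count of 2.

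The batch label equals the replicate number, so the numbers pair the samples. Deviations from group means correlated at 0.3065 to 0.7348 for the 12 same-numbered pairs of libraries and at −0.4612 to 0.4448 for the other 36. Alternatives were the replicate block (6 residual degrees of freedom), DESeq2 1.42.0, RLE and upper-quartile scaling, other filters on low counts, only the 2 groups compared, removal of GC and length trends with and without the block, and leaving out each library. The edgeR step was tested on simulated data.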

Additional observations from a re-analysis of the deposited data

Results flagged for a closer look

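Across 63 groups of 4 libraries, the 3 groups of each of 21 named members, 5 had a library whose gap to its nearest neighbour exceeded Dixon's critical share of the range of its group. Chance flags about 1 group in 20. Nfkbib had 42.8 CPM in full-length replicate 2, against 31.9 to 33.3 in the others. Bcl3 had 29.2 CPM in full-length replicate 4, against 39.4 to 40.6. Myd88 had 161 CPM in full-length replicate 1, against 189 to 190.2. Ikbke had 142 CPM in coiled-coil replicate 1, against 229 to 243. Ikbkb had 111 CPM in vehicle replicate 1, against 101 to 102.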

How the results depend on the processing

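Full-length NfL against vehicle gave 14 members higher and 1 lower. The same 14 were kept with the replicate block, DESeq2, upper-quartile scaling and removal of GC and length trends with or without the block. Higher counts were 24 with GC and length trends removed and the replicate block, beside 28.5% of all tested genes. They were 10 to 14 when single libraries were left out, in fits that called 1392 to 2349 genes higher. With only the 2 groups compared Birc3, Nfkbib and Ripk2 were lost. That fit called 1814 genes higher, beside 2062 in the fit by group of all libraries. Lower counts were 7 with the replicate block, where 22.4% of all tested genes were lower, and 5 with upper-quartile scaling (13.6%). They were 3 with DESeq2 (1922 genes lower) and 2 with at least 10 counts in every library of a group (1683 genes). With GC and length trends removed they were 0 (7.52%), and 2 with the block as well (18%). Without single libraries they were 1 to 2 (992 to 1735 genes). The 2 were reached without full-length replicate 1. For coiled-coil NfL against vehicle the counts were 0 and 0 without any single library. Over all tested genes 18 were higher and 8 lower without coiled-coil replicate 1, and 0 without any other library. DESeq2, which gave no adjusted p for several members, called 1 member higher, beside 21 genes higher and 6 lower. Full-length against coiled-coil NfL gave 2 higher and 0 lower, beside 202 and 197 of all tested genes. With the replicate block the counts were 6 and 1 (1321 and 1485 genes). With GC and length trends removed as well they were 13 and 1 (2301 and 1119 genes). With only the 2 groups compared 1 member was higher (85 genes). Without single libraries 0 to 4 were higher and 0 lower, in fits that called 14 to 324 genes higher and 18 to 277 lower. Fits without a library hold fewer samples. The cause of the other changes was not tested.

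The replicate block changed no call of a member beyond those named in the results above. Among members given in every library, signs turned for 3 that were not called. Nfkb1 had 0.02 with GC and length trends removed and 0.03 with the block as well, Ikbkb 0.15 and 0.15 under the same settings, and Irak4 −0.01 with upper-quartile scaling and −0.04 to 0.13 when single libraries were left out. Of the named members' fold changes under all settings, 725 kept their direction and call, 37 lost the call, 9 gained it and 6 turned. Of all genes called with full-length NfL against vehicle 56.4% were higher, and 45.8% with upper-quartile scaling and 68.6% with GC and length trends removed. Depth limits Traf1 most, with as few as 32 reads in a library.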
